A study of Mus musculus with 8 samples.

Results

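The genes described here encode the proteins of elastic fibres and of the microfibrils around them: Fbn1, Fbn2, Eln, Mfap2, Mfap4, Mfap5, Fbln1, Fbln2, Fbln5 and Emilin1. They were chosen by gene symbol, and all 10 were found among the 18877 gene symbols of the normalized count table. The RNA came from ASCs, which are muscle stem cells that an injury has moved out of quiescence. All mice carried the fluorescent mito-Dendra2 allele under the Pax7-CreERT2 driver, which acts in muscle stem cells and their progeny, and all received tamoxifen at 75 mg/kg daily for 5 days. BaCl2 (50 uL at 1.2%) was injected into the tibialis anterior muscle 2 days after the last dose, and living CD34-, Dendra2+ cells were sorted 2 days after the injury. There were 4 wild-type libraries and 4 mfn2-/- libraries, in which the gene of the outer mitochondrial membrane fusion protein mitofusin 2 had been deleted with the same Cre driver, so that other cells of the muscle kept it. Ages and the number of animals behind each library are not given in the labels, so p-values below measure the spread between these libraries, which may in part be technical.

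Elastic fibres let tissues recoil after stretch. Fibrillins polymerise into microfibrils, the microfibril-associated glycoproteins decorate them, tropoelastin is laid down on this scaffold with the help of fibulins and EMILIN-1, and lysyl oxidases then cross-link it. In skeletal muscle these fibres lie in the connective tissue sheaths and tendons, and fibroblast-like cells are known as their main source. Microfibrils also hold latent TGF-beta and so tie the matrix to growth factor signalling.

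Libraries held 1880464 to 7508215 reads assigned to genes and detected 9646 to 15270 genes. Values are normalized read counts unless another scale is named, and 1 read was worth 0.534 to 2.27 of them. In a library with 0 reads of a gene, a count of 0 allows up to 3 reads, which is 2.21 normalized reads in mfn2-/- replicate 3 and 5.50 in mfn2-/- replicate 4, for counting error only. Replicate 4 of mfn2-/- stood apart, with 9646 genes detected against 12613 in the shallower wild-type replicate 1 and the lowest weight of all libraries in limma (0.167). Mfn2 itself, counted over the whole gene and so including any part left after deletion, had 243, 245, 202 and 228 normalized reads in wild-type replicates 1 to 4 and 104, 118, 172 and 110 in mfn2-/- replicates 1 to 4. The groups did not overlap, but the log2 change of -0.88 (SE 0.30) did not pass limma's test (adjusted p = 0.0848). Libraries also differed in reads of Y-linked genes. Replicates 3 and 4 of wild-type and replicates 1 and 2 of mfn2-/- held 807 to 2336 of them, and the other 4 libraries held 0. Each group therefore had 2 libraries of each kind, and changes are also given within each kind.

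Sequences upstream of the transcription start are shown for 3 genes that differ in what they did: Fbn1, the most abundant, Mfap2, which had almost no reads in mfn2-/- libraries, and Fbln2, the one member that missed the test. RefSeq (GRCm38.p6) held starts for 6 of the 10 genes, with 9 starts in all. For each gene the 250 bases before its most upstream RefSeq start are printed 5' to 3' on the strand of the gene. GENCODE M21, used below for gene positions, begins Fbn1 and Fbln2 further upstream, so these 2 stretches lie inside the GENCODE gene. Capitals mark matches, on either strand, to an E-box (CANNTG), the hypoxia response core (ACGTG or GCGTG), a GC box (GGGCGG), AP-1 (TGACTCA or TGAGTCA), TEAD (GGAATG) or SMAD (CAGACA) motif.
Fbn1, chr2:125506439-125506688, minus strand: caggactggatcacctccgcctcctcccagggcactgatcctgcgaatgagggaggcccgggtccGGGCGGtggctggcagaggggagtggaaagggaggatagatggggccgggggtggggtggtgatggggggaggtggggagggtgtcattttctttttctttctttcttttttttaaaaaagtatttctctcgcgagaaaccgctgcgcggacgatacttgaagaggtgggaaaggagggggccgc
Mfap2, chr4:141010174-141010423, plus strand: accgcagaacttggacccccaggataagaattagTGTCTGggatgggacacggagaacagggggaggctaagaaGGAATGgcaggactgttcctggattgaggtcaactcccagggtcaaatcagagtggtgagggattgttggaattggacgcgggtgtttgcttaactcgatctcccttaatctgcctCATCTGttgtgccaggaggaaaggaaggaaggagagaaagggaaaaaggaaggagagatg
Fbln2, chr6:91212514-91212763, plus strand: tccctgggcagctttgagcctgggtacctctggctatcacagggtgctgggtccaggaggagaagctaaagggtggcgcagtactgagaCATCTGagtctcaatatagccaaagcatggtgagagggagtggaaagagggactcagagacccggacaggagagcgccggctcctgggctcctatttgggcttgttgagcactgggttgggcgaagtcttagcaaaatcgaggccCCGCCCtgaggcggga

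The Fbn1 stretch held 1 GC box that begins 185 bases before the start. In Mfap2 the matches were a SMAD, a TEAD and an E-box motif, and in Fbln2 an E-box and a GC box that begins 16 bases before the start. Over the 9 starts of the 6 genes, an E-box was present at 6, against 66.2% of 32851 mouse starts searched alike. Hypoxia response cores were found at 5 of the 9, against 38.6% of all starts, with both starts of Fbln1, which share sequence, among them. Matches were most numerous in Fbln1 and Fbln5, whose most upstream starts held 3 and 4. In Fbln1 a pair of these matches is the same E-box, CACGTG, read on both strands. GC boxes were also found at 5 (32.7% of all starts) and SMAD motifs at 5 (17.1%), TEAD motifs at 1 (12.6%) and AP-1 motifs at 0 (4.46%). Starts of 1 gene overlap in part, and a match describes letters only.

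All 10 genes were lower in mfn2-/- ASCs than in wild-type ASCs, and for each of them every mfn2-/- library lay under every wild-type library. With limma on log2(value + 1) and Benjamini-Hochberg adjustment over 11754 tested genes, 9 of the 10 fell, 0 rose, and Fbln2 just missed the threshold of 0.05. Across all tested genes 6.36% fell and 3.99% rose by that test, and 12.2% had no mfn2-/- library above any wild-type library. After upper-quartile scaling, 57.2% of all calls were rises, against 38.5% with the deposited scaling, and the same 9 members fell under both. The log2 changes of the 10 genes ran from -9.03 to -1.14 with a median of -3.74, and the median of all tested genes was -0.16. Every member passed the filter on low values (10 or more normalized reads on average across libraries), but 4 (Fbn2, Mfap2, Mfap4 and Mfap5) did so through their wild-type values alone, and a gene that passes in that way has to differ. The 10 genes together took 0.275% ± 0.0273 (SD, n = 4) of the normalized reads of wild-type libraries and 0.0546% ± 0.0149 of those of mfn2-/- libraries. In bulk samples, fewer cells of a type and less RNA per cell cannot be told apart.

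**Figure D1:**
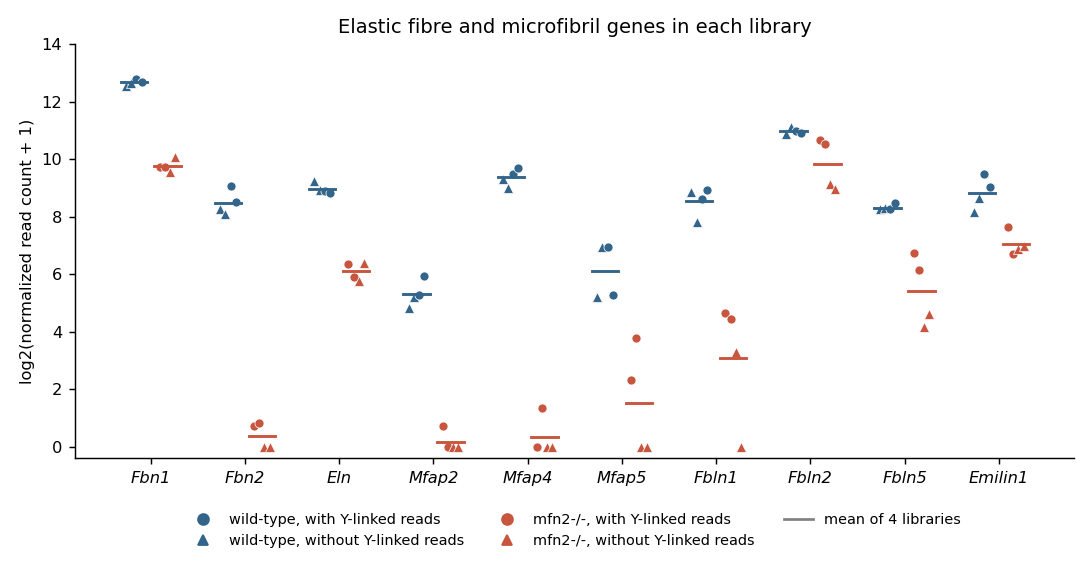
Normalized read counts of each gene on a log2(value + 1) axis, 1 point per library, wild-type in blue and mfn2-/- in red, circles for libraries with Y-linked reads and triangles for those without, lines for the mean of 4 libraries. For each gene the red points lie under the blue ones, and Fbn2, Mfap2 and Mfap4 are at or near 0 in the mfn2-/- libraries.

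Fibrillins form the rod of the microfibril. Fbn1 (ENSMUSG00000027204.13, chr2:125300594-125507993 in GRCm38, minus strand) encodes fibrillin-1, the main fibrillin of adult tissue, which is mutated in Marfan syndrome. Its normalized reads were 5997, 6401, 7120 and 6582 in wild-type replicates 1 to 4 and 848, 844, 749 and 1074 in mfn2-/- replicates 1 to 4. Both groups were tight and lay far apart. The means were 6525 ± 466 and 879 ± 138, a 7.42-fold difference, with a log2 change of -2.90 (SE 0.17, adjusted p = 1.83e-07). The lowest mfn2-/- library still held 749 normalized reads of Fbn1.

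Fbn2, on chromosome 18, encodes fibrillin-2, the fibrillin of developing and regenerating tissue. Normalized reads were 307, 271, 532 and 363 in the wild-type libraries and 0.667, 0.790, 0 and 0 in the mfn2-/- libraries. Here the mfn2-/- values came from 2 reads in all, against 1727 in the wild-type libraries, and 2 of the 4 mfn2-/- libraries had none. The pooled ratio was 896, with a 95% counting interval of 248 to 7402, and the fitted log2 change, which depends on the pseudocount for a gene this low, was -8.09 (SE 0.87, adjusted p = 6.28e-05). The log2 ratio of Fbn2 to Fbn1 averaged -4.19 ± 0.34 over wild-type and -9.37 ± 0.55 over mfn2-/- libraries. With so few reads the mfn2-/- ratio is set by the pseudocount: the difference of -5.18 became -7.37 with a pseudocount of 0.1 and -2.26 with one of 10, and no test is given for it.

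Eln (ENSMUSG00000029675.12, chr5:134702593-134747323, minus strand) encodes tropoelastin, the soluble precursor of the elastic core. Wild-type libraries had 609, 480, 470 and 451 normalized reads and mfn2-/- libraries 80.0, 59.3, 53.1 and 82.5. No library came near those of the other group. The means of 503 ± 72.1 and 68.7 ± 14.7 differed 7.32-fold, and the log2 change of -2.87 (SE 0.29, adjusted p = 4.00e-05) was close in size to that of Fbn1.

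Microfibril-associated proteins 2 and 5 (MAGP-1 and MAGP-2) are small glycoproteins that sit on fibrillin and bind growth factors of the TGF-beta family. Mfap2 (ENSMUSG00000060572.17, chr4:141010418-141015984, plus strand) had 27.3, 36.3, 37.6 and 60.9 normalized reads in the wild-type group and 0.667, 0, 0 and 0 in the mfn2-/- group. A single read in mfn2-/- replicate 1 was all that was counted in that group, against 207 in the wild-type group. The pooled ratio was 215, with a wide counting interval of 38.1 to 8522, and the fitted log2 change was -5.13 (SE 1.05, adjusted p = 0.00744).

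Mfap5 (ENSMUSG00000030116.14, chr6:122505845-122529290, plus strand) was the least even member among wild-type libraries. Its normalized reads were 36.4, 122, 121 and 37.9 in wild-type libraries and 4.00, 12.6, 0 and 0 in mfn2-/- libraries. Wild-type replicates 2 and 3 stood well above replicates 1 and 4, and the 22 reads of the mfn2-/- group came from replicates 1 and 2. The log2 change was -4.57 (SE 1.18, adjusted p = 0.0265). The call was lost without wild-type replicate 2 (adjusted p = 0.0756), 3 (0.0957) or 4 (0.0565) and without mfn2-/- replicate 3 (0.0639). It was also lost with edgeR (0.0519), with a pseudocount of 0.1 (0.0715) and with no filter (0.0551). The log2 changes ran from -5.32 to -4.07 when 1 library was left out. A ratio of Mfap5 to Mfap2 could not be had in mfn2-/- replicates 3 and 4, which had 0 reads of both genes.

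Mfap4 (ENSMUSG00000042436.12, chr11:61485431-61488900, plus strand) encodes a fibrinogen-domain protein that binds elastin, fibrillin and collagen. It had the largest fitted change of the 10 and the fifth largest fall of the 11754 tested genes, but passed the filter through its wild-type values alone. With so few mfn2-/- reads, the size of the change and its rank depend on the wild-type level and the pseudocount. Wild-type libraries held 639, 508, 723 and 824 normalized reads, and mfn2-/- libraries 0, 1.58, 0 and 0. Only 2 reads were counted in the mfn2-/- group, both in replicate 2, against 3199 in the wild-type group. The pooled ratio was 1659 with a counting interval of 459 to 13706, and the log2 change was -9.03 (SE 0.80, adjusted p = 1.03e-05). That change became -11.7 with a pseudocount of 0.1 and -6.02 with one of 10. Relative to Fbn1, the log2 level of Mfap4 went from -3.29 ± 0.27 to -9.43 ± 0.75, a difference of -6.13 that became -8.78 with a pseudocount of 0.1 and -3.13 with one of 10. It is given with no test, since 3 of the 4 mfn2-/- libraries had 0 reads of Mfap4.

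Fibulins are glycoproteins that bridge elastin, microfibrils and cells. Fbln1 (ENSMUSG00000006369.14, chr15:85205949-85286535, plus strand) encodes fibulin-1, which is found within elastic fibres and in blood. Normalized reads were 457, 222, 392 and 487 in wild-type and 24.0, 20.5, 8.84 and 0 in mfn2-/- libraries. The lowest wild-type library still stood at 222, far above the highest mfn2-/- value. The log2 change was -5.45 (SE 0.92, adjusted p = 0.00210), and the pooled ratio of 25.3 had a counting interval of 20.1 to 32.4. Without mfn2-/- replicate 4, which had 0 reads, the log2 change was -4.42 (adjusted p = 0.000122).

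Fbln5 (ENSMUSG00000021186.9, chr12:101746565-101819055, minus strand) encodes fibulin-5, which binds tropoelastin and integrins and is needed for elastic fibre assembly. Its wild-type values were close together, at 307, 312, 304 and 352. In mfn2-/- libraries they were 107, 70.3, 16.9 and 23.8. Replicates 1 and 2 of that group lay above replicates 3 and 4, and the log2 change over all libraries was -2.89 (SE 0.54, adjusted p = 0.00423). The log2 ratio of Fbln5 to Eln averaged -0.65 ± 0.26 over wild-type and -0.67 ± 1.16 over mfn2-/- libraries, and the difference was -0.02 (exact permutation p = 0.971, adjusted p = 0.971). That value averages opposite ones, 0.82 among libraries with Y-linked reads and -0.87 among those without.

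Fbln2 (ENSMUSG00000064080.12, chr6:91212455-91272540, plus strand) encodes fibulin-2, a large fibulin of basement membranes and vessel walls. Normalized reads were 1874, 2228, 2009 and 1924 in wild-type libraries, and 1640, 1488, 559 and 500 in mfn2-/- libraries. The mfn2-/- group was split, with replicates 1 and 2 close under the wild-type range and replicates 3 and 4 far below it. Over all libraries the log2 change was -1.14 (SE 0.34, adjusted p = 0.0522), and the groups did not overlap (two-sided exact permutation p = 0.0286). Fbln2 passed the test without mfn2-/- replicate 1 (log2 change -1.42, adjusted p = 0.0174) or 2 (-1.38, 0.0301), and with a term for Y-linked reads (adjusted p = 0.0180). Without mfn2-/- replicate 3 (-0.91, 0.147) or 4 (-0.85, 0.122) the change of Fbln2 was smaller and the adjusted p higher. With library weights the change was smaller (-0.62) at nearly the same adjusted p (0.0519). Of 21 alternatives Fbln2 passed in 6 and missed in 15. Against Fbln1, Fbln2 was relatively higher in mfn2-/- cells: the log2 ratio averaged 2.42 ± 0.62 over wild-type and 6.74 ± 1.49 over mfn2-/- libraries (difference 4.31, exact permutation p = 0.0286, the smallest that 4 against 4 allows, and 0.0429 after adjustment over the 6 ratios computed). The difference was 3.06 with a pseudocount of 10 and 5.20 with one of 0.1, and 3.57 without mfn2-/- replicate 4, which had 0 reads of Fbln1. The adjusted p leans on the ratios of Fbn2 and of Mfap4 to Fbn1, which are among the 6 and were set by the pseudocount.

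Emilin1 (ENSMUSG00000029163.9, chr5:30913402-30921277, plus strand) encodes EMILIN-1, which lies where elastin meets microfibrils and restrains TGF-beta processing. The 4 wild-type libraries had 289, 402, 710 and 524 normalized reads and the 4 mfn2-/- libraries 197, 104, 117 and 126. Values were scattered in the wild-type group, and its lowest library was still above the highest of the other group. The log2 change of -1.78 (SE 0.33, adjusted p = 0.00391) was the smallest of the 9 calls. As Fbn1 fell by more, the log2 ratio of Emilin1 to Fbn1 was higher in mfn2-/- libraries, at -2.71 ± 0.44 against -3.83 ± 0.45 (difference 1.12, exact permutation p = 0.0286, adjusted p = 0.0429). That adjusted p has the limit given for the ratio of Fbln2 to Fbln1.

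**Figure D2:**
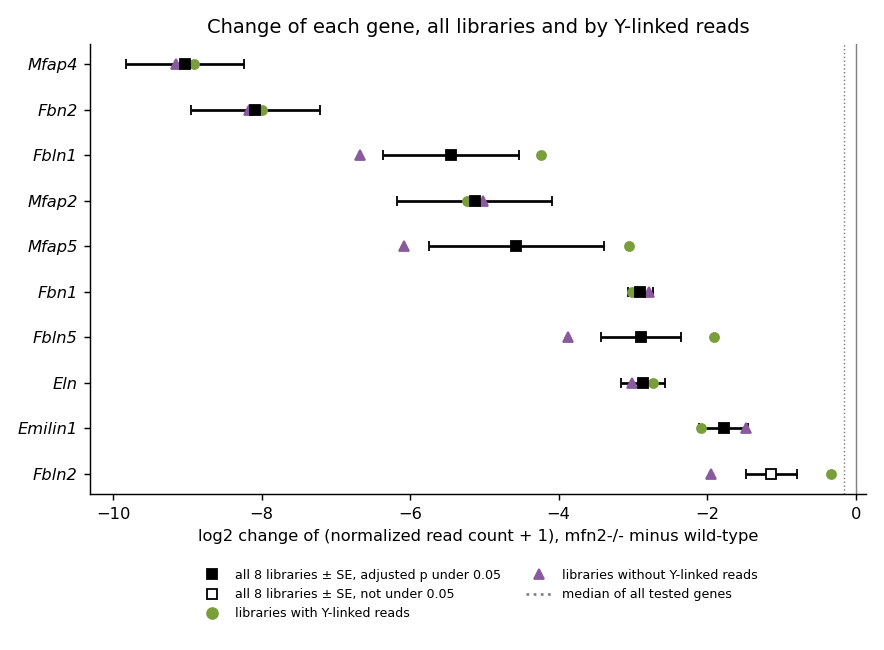
Log2 change of each gene (mfn2-/- minus wild-type, horizontal axis) as squares with the standard error over all 8 libraries, filled where the adjusted p is under 0.05, with the change among libraries with Y-linked reads (circles) and without them (triangles). The circle and triangle of Fbln2 lie at -0.33 and -1.95, and those of Fbn1 at -3.02 and -2.79; the dotted line is the median of all tested genes.

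Within each kind of library all 10 genes were lower in mfn2-/- cells, with 2 libraries per group. Fbn1 changed by -3.02 on the log2 scale among libraries with Y-linked reads and by -2.79 among those without, and Eln by -2.72 and -3.01. Those pairs differed little. Fbln2 stood apart, at -0.33 and -1.95. The difference of 1.62 (SE 0.23) passed limma's interaction test (adjusted p = 0.00778), which 173 of all tested genes passed. For Fbln5 the changes were -1.90 and -3.88 (unadjusted p = 0.0185, adjusted p = 0.286), and for Mfap5 they were -3.06 and -6.09 (adjusted p = 0.576). The largest gap after Mfap5 was in Fbln1, at -4.24 and -6.67 (adjusted p = 0.555). For Emilin1 the order was the other way round, at -2.08 and -1.48 (adjusted p = 0.681). In both groups the kind of library coincides with a pair of replicates, so the source of this split cannot be told apart from other differences between those libraries. Without the intensity trend in limma's variance the interaction passed for 0 members.

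The mixture of the 10 transcripts changed along with their sum. In wild-type libraries Fbn1 made up 57.3% ± 0.704 of the summed normalized reads of the 10 genes and Fbln2 17.7% ± 1.85. In mfn2-/- libraries the shares were 42.7% ± 14.3 for Fbn1 and 44.6% ± 14.6 for Fbln2. Fbn1 ranged from 29.2% to 59.4% there, so its share overlapped between the groups, whereas that of Fbln2 ran from 27.7% to 57.2% and lay above its wild-type range of 16.2% to 20.3%. Mfap4 went from 5.90% to 0.0152%, and Fbn2 from 3.20% to 0.0133%.

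**Figure D3:**
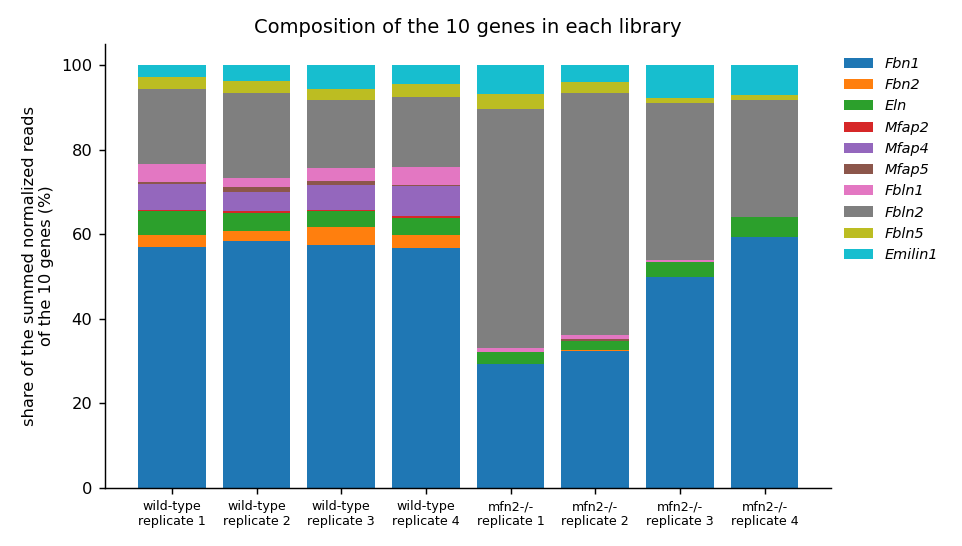
Share of each gene in the summed normalized reads of the 10 genes, in percent, 1 bar per library. Fbn1 and Fbln2 fill most of every bar, with 57.3% and 17.7% on average in wild-type libraries and 42.7% and 44.6% in mfn2-/- libraries.

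Per kilobase of exon, which sets levels roughly side by side across genes, Fbn1 was highest in wild-type libraries with 538 ± 38.4 normalized reads per kilobase. The lengths join all annotated exons of a gene and can exceed that of a single transcript, so the order across genes is approximate. Mfap4 (350 ± 69.6) and Fbln2 (315 ± 24.5) followed, with overlapping ranges. Emilin1 (97.5 ± 36.5), Fbln1 (89.2 ± 27.1) and Eln (62.1 ± 8.90) came next, each overlapping its neighbour, and the range of Eln lay above that of Fbln5 (46.1 ± 3.21). Fbln5 overlapped Mfap2 (33.5 ± 11.8) and lay above Fbn2 (27.9 ± 8.77) and Mfap5 (22.1 ± 13.6), and these last 3 overlapped each other. In mfn2-/- libraries the order by mean was Fbln2 (164 ± 94.3), Fbn1 (72.5 ± 11.4) and Emilin1 (27.6 ± 8.38), of which Fbln2 and Fbn1 overlapped. Eln (8.48 ± 1.82) and Fbln5 (7.88 ± 6.10) were next, and the other 5 had at most 3.06 on average. Mfap4, second in wild-type cells, was thus among the lowest in mfn2-/- cells.

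Other genes of the pathway were taken from a list of 44, of which 42 were in the table and 40 were tested. The list was written with earlier results of these data known, so its counts are not an independent test. In mfn2-/- cells 16 of the 40 fell and 0 rose, against 6.36% and 3.99% of all tested genes. Their median log2 change was -1.10. Lysyl oxidases, which cross-link elastin and collagen, fell in 5 of 5 cases, against 6.36% of all tested genes. Lox averaged 1110 ± 123 normalized reads over wild-type and 382 ± 163 over mfn2-/- libraries (-1.62 on the log2 scale, adjusted p = 0.00187). Loxl1, the lysyl oxidase gene tied to elastic fibre renewal, went from 411 ± 107 to 100 ± 36.6 (-2.08, 0.00241), and Loxl2 from 1452 ± 381 to 317 ± 132 (-2.25, 0.000405). Loxl3 went from 271 ± 52.0 to 29.6 ± 4.60 (-3.14, 0.000405). Loxl4 went from 278 ± 48.4 to 1.58 ± 3.16 (-7.39, 0.000405), and all of its 8 mfn2-/- reads were in replicate 2. Loxl4, and Fbln7 below, passed the filter on low values through the wild-type group alone, and so had to differ.

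Of the 9 other fibulins and members of the EMILIN and multimerin family, 2 fell, against 6.36% of all tested genes. Fbln7 averaged 464 ± 154 against 5.27 ± 6.10 normalized reads (-7.04, adjusted p = 0.000531). Hmcn2, which encodes the very large fibulin-like hemicentin-2, went from 19181 ± 3061 to 9489 ± 4755 (-1.15, adjusted p = 0.0411). Like Fbln2, Hmcn2 changed less among libraries with Y-linked reads (-0.31) than among those without (-1.99, limma's interaction test, adjusted p = 0.00163). Of the 7 latent TGF-beta binding proteins and their ligands, 2 fell, against the same 6.36%. Ltbp3 went from 1133 ± 126 to 514 ± 114 (-1.16, adjusted p = 0.00376) and Tgfb3 from 796 ± 79.8 to 386 ± 80.8 (-1.06, adjusted p = 0.00614). The other 5 did not pass.

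Of the 6 ADAMTS and ADAMTS-like proteins that bind microfibrils, 1 fell: Adamtsl2 went from 310 ± 76.3 to 11.4 ± 9.48 (log2 change -5.13, adjusted p = 0.00124). As 6.36% of all tested genes fell, 1 call among 6 says little about that group. Of the 8 integrin subunits that bind fibrillin, fibulin-5 or EMILIN-1, 3 fell. These were Itgb5 (-2.29, adjusted p = 0.00187), Itga9 (-4.19, 0.0197) and Itgb1, the shared beta 1 subunit (-0.68, 0.0256). Of 5 tested enzymes that can degrade elastin, 3 fell. Mmp2 went from 5121 ± 189 to 728 ± 104 normalized reads (-2.82, adjusted p = 1.83e-07), Ctsk from 524 ± 151 to 17.9 ± 21.5 (-5.97, 0.00192) and Mmp14 from 627 ± 150 to 330 ± 50.9 (-0.90, 0.0325). Mmp9 and Elane were under the filter, and Mmp12 and Ctsv were not analysed here. Without the intensity trend in limma's variance 10 pathway genes passed. Of 21 alternatives each, Hmcn2 missed the threshold in 12, Mmp14 in 11, Itgb1 in 7 and Itga9 in 5. Ltbp3 and Tgfb3 missed it in 1 each. For Hmcn2 these include edgeR (adjusted p = 0.112) and limma after upper-quartile scaling (0.0888) or quantile normalization (0.0870). Mmp14 and Itgb1 also missed it with edgeR and after upper-quartile scaling. Leaving out 1 library ended 4 of the 16 calls: Hmcn2 without any 1 wild-type library or mfn2-/- replicate 3 or 4 (adjusted p = 0.0615 to 0.119), Itga9 without wild-type replicate 2, 3 or 4 (0.0533 to 0.0620), Itgb1 without wild-type replicate 3 or 4 or mfn2-/- replicate 1 or 2 (0.0708 to 0.0807), and Mmp14 without wild-type replicate 2, 3 or 4 or mfn2-/- replicate 1 or 2 (0.0683 to 0.103). Other omissions moved a change by over 1.5-fold with the call kept. Without mfn2-/- replicate 4 the log2 change was -2.91 for Itga9, -4.97 for Ctsk and -6.45 for Fbln7, and without replicate 3 it was -4.86 for Itga9, -4.35 for Adamtsl2 and -6.45 for Fbln7. Without replicate 2 it was -6.82 for Ctsk, -7.65 for Fbln7 and -8.11 for Loxl4.

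**Figure D4:**
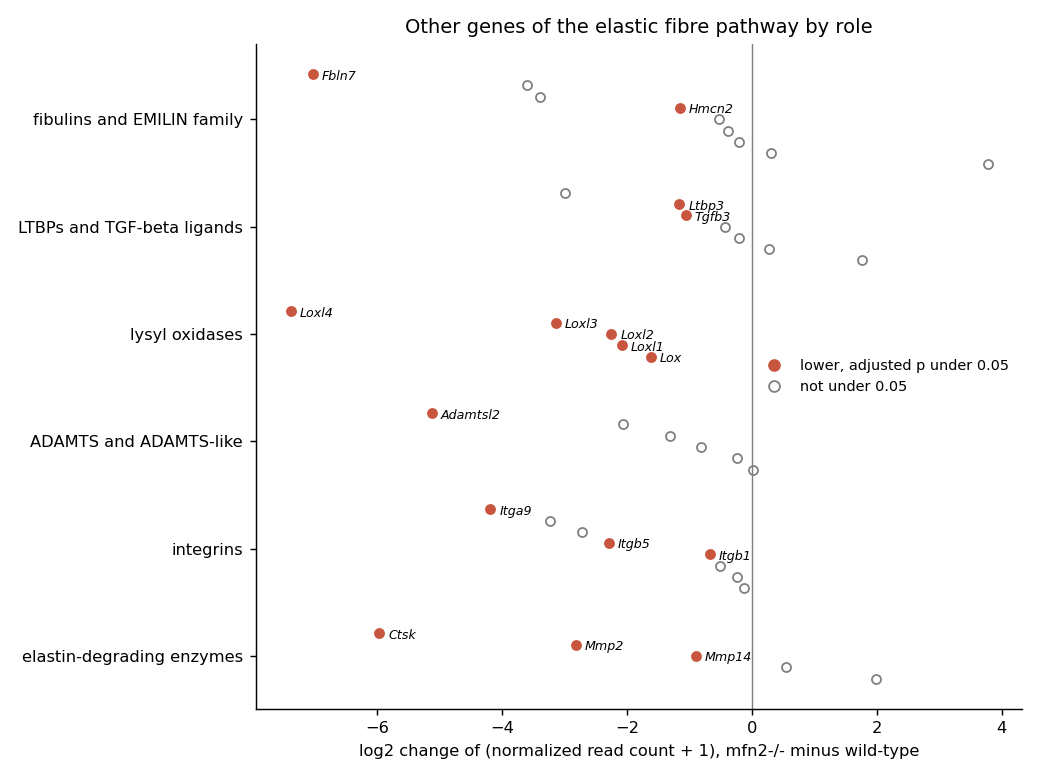
Log2 change (mfn2-/- minus wild-type, horizontal axis) of the 40 tested pathway genes outside the 10, 1 point per gene, by role, filled and named where the adjusted p is under 0.05. The 5 lysyl oxidases are filled, from -1.62 for Lox to -7.39 for Loxl4, and no filled point lies above 0.

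Markers of some other cell types, but not of all, fell together with these genes. Across all tested genes 6.36% fell and 3.99% rose, which is the share to set beside the counts below. The sort for Dendra2+, CD34- cells is meant to leave other cell types out, and the labels give 1 sorting protocol for both groups. How far the sort did so in either group was not tested. Of 10 markers of fibroadipogenic progenitors, the connective tissue cells of muscle, 8 fell in mfn2-/- libraries, and their summed level was 126358 to 170950 normalized reads in wild-type and 872 to 2981 in mfn2-/- libraries. The most abundant were the collagen genes Col1a1 (log2 change -8.36) and Col3a1 (-4.44) and the proteoglycan gene Dcn (-6.87). Dpt (342 ± 90.5 and 153 ± 116) and Ly6a (11.6 ± 11.4 and 34.4 ± 18.02), the latter higher on average in mfn2-/- libraries, did not pass. Markers of tenocytes, the cells of tendon, fell in 9 of 9 cases (Fmod -8.35, Thbs4 -6.57, Tnmd -9.47), from a sum of 38669 to 60889 to a sum of 306 to 415. Of these, 6 of the tenocyte and 3 of the fibroadipogenic markers passed the filter on low values through the wild-type group alone and had to differ. The mean sum of the 10 elastic fibre genes was 5.17-fold lower in mfn2-/- libraries, that of the fibroadipogenic list 72.8-fold and that of the tenocyte list 144-fold. Sums follow their most abundant genes and do not give the change of a typical gene. Col1a1 averaged 106037 of the mean fibroadipogenic sum of 147310 in wild-type libraries. It was 317-fold lower in mfn2-/- libraries, Col3a1 18.6-fold and Dpt 2.24-fold. The sum of the 10 genes was mostly Fbn1 and Fbln2. No marker of either list was at 0 in all mfn2-/- libraries. Their part in the changes of the 10 genes was not tested.

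Markers of muscle stem cells were present in both groups. The counts here are again read beside the 6.36% of all tested genes that fell and the 3.99% that rose. Of 8 myogenic markers 0 fell and 3 rose, Myod1 (log2 change 2.32), Vcam1 (1.21) and Des (1.91), and Pax7 averaged 662 ± 45.9 normalized reads over wild-type and 715 ± 96.1 over mfn2-/- libraries. The most abundant were Des, Chodl and Vcam1, and the summed level was 7778 to 10330 in wild-type and 14643 to 18921 in mfn2-/- libraries. Des alone averaged 2156 ± 888 over wild-type and 7969 ± 2942 over mfn2-/- libraries. Itga7 (1249 ± 635 and 621 ± 94.7) and Chodl (2393 ± 438 and 2324 ± 1203) averaged lower in mfn2-/- libraries and did not pass. Of 7 tested markers of smooth muscle and mural cells, 2 fell (Cspg4 and Pdgfrb) and 1 rose (Abcc9), with sums of 3840 to 4970 and 2511 to 3974; Notch3, Acta2 and Pdgfrb were the most abundant. Endothelial markers, led by Tek, Cdh5 and Pecam1, passed in 0 of 8 cases (sums of 1064 to 1446 and 1179 to 1754). Macrophage markers, led by Cd68, Itgam and Lyz2, passed in 0 of 5 tested cases and were low throughout (48.1 to 152 and 98.0 to 172). Among Schwann cell markers Ngfr fell (log2 change -3.34, adjusted p = 0.00531), and Mbp averaged 146 ± 64.1 and 133 ± 52.3 normalized reads.

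**Figure D5:**
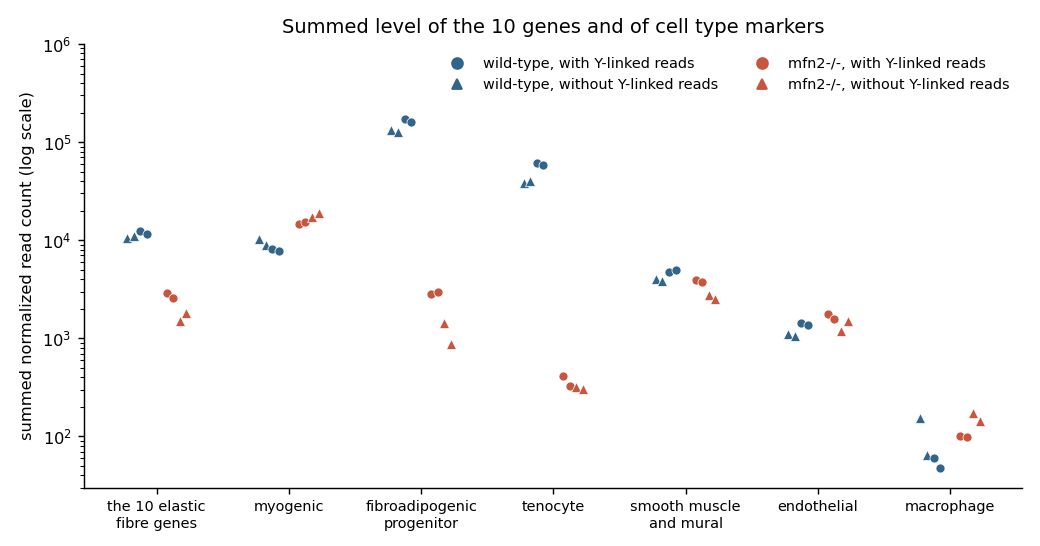
Summed normalized reads (log axis) of the 10 elastic fibre genes and of the marker lists of other cell types and of muscle stem cells, 1 point per library, wild-type in blue and mfn2-/- in red, circles with and triangles without Y-linked reads. The fibroadipogenic and tenocyte sums lie furthest apart between the groups, at 72.8-fold and 144-fold. The myogenic sum, to which Des adds most over the 8 libraries, is higher in mfn2-/- libraries.

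The genes whose pattern over the 8 libraries was most like the mean of the 10 were sought by the root mean square difference of centred log2(value + 1) values. Col3a1 was nearest, at 0.21, followed by Col6a2 (0.33), Sparc (0.35), D3Bwg0562e (0.40) and Cspg4 (0.41). Col3a1, a fibrillar collagen, went from 25145 ± 2164 to 1350 ± 785 normalized reads, Col6a2, a chain of the beaded collagen VI, from 6272 ± 1031 to 294 ± 54.5, and Sparc, a collagen-binding matrix glycoprotein, from 31835 ± 4396 to 2019 ± 318. Cspg4 encodes the proteoglycan NG2 of mural cells. Col3a1 and Cspg4 are also on the marker lists above. Of the 10 genes themselves, Mfap2 lay closest to the mean at 0.56 and Mfap4 furthest at 2.36.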

How the data were processed

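Total RNA of sorted cells was made into stranded libraries from low input. Per the labels, the submitters' processing notes name Trim Galore, HISAT2, featureCounts, DESeq2 and the mouse build mm9, and versions, annotation and the strand setting are not given in the sources used here. As deposited, the table holds 1 signal per gene and library, a read count that the authors had divided by the size factor of the library. Dividing by the smallest step gave whole reads for 100% of values in each library (tolerance 0.01 reads), which served for depth and for count tests. Every column matched 1 labelled library. Amplified copies cannot be told from separate molecules, so intervals and floors of 3 reads cover counting error only.

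Genes with a mean of 10 or more (11754) were tested with limma 3.58.1 (R 4.3.3) on log2(value + 1), which understates changes of weak genes, with an intensity trend and Benjamini-Hochberg adjustment at 0.05, two-sided. Ratios between members were compared with exact permutation tests over 70 arrangements. Pooled ratios carry exact 95% intervals. Alternatives were pseudocounts of 0.1 and 10, no filter or a mean of 50, 3 other scalings, a replicate block, no trend, library weights, a term for Y-linked reads, an adjusted p under 0.01, each library left out, and 2 count tests on whole reads. The quasi-likelihood test of edgeR 4.0.16 with TMM scaling called 1158 genes, DESeq2 1.42.0 called 1738 and limma 1217. Gene positions and exon lengths are those of GENCODE M21 (GRCm38), since the table has no coordinates. Promoter sequences are those of RefSeq.

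Members and lists were chosen with earlier results of these data known. The text names the 10 genes, each pathway gene past the threshold, the 3 most abundant markers of each list, Mfn2 and the 5 nearest profiles. Abcc9, Cspg4, Pdgfrb, Myod1, Pax7, Itga7, Dpt, Ly6a and the genes of ended or changed calls were named after their values were seen. One marker and the sum of its list are not reported here. Same-numbered libraries did not deviate together.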

Additional observations from a re-analysis of the deposited data

Results flagged for a closer look

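Among 54 groups of 4 libraries compared, 4 had a sample that stood apart by Dixon's criterion, which flags about 1 group in 20 by chance. That rate does not apply to the first 3, since 1 value above 0 beside 3 at 0 always meets the criterion. Mfap2 had 0.667 normalized reads in mfn2-/- replicate 1, which is 1 read, and 0 in the other 3 libraries of that group. Mfap4 had 1.58 in mfn2-/- replicate 2, which is 2 reads, and 0 elsewhere in the group. Loxl4 had 6.32 in mfn2-/- replicate 2, from 8 reads, and 0 in the other 3. Mmp14 had 405 in wild-type replicate 1, whereas the other wild-type libraries held 667 to 721.

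A pair of genes differed in their genotype effect between libraries with and without Y-linked reads. For Fbln2 the log2 change was 1.62 higher with Y-linked reads (-0.33 against -1.95, limma interaction, adjusted p = 0.00778). For the hemicentin gene Hmcn2 it was 1.69 higher (-0.31 against -1.99, adjusted p = 0.00163). Both are among 173 genes with such a difference, and each value rests on 2 libraries per group and kind.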

How the results depend on the processing

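All 10 members kept their direction under every alternative that could be computed, and 195 of 208 alternative values for single members kept their side of the threshold. The exceptions were Mfap5, which missed it in 7, and Fbln2, which passed it in 6. Between 8 and 10 members passed, except with the filter at 50, where 8 were tested and 7 passed. Mfn2 passed with library weights (adjusted p = 0.0099). Upper-quartile scaling, quantile normalization and edgeR moved the median of all genes by 0.20, 0.23 and 0.11 on the log2 scale. Relative to that median, Fbln2 changed by -0.98 with the deposited scaling, -0.97, -1.36 and -0.79.

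Of the pathway genes 10 fell without the intensity trend. With library weights 2 rose (Mmrn1 and Ctsl), with edgeR 1 and with DESeq2 1 (Mmrn1 both times), and with 1 library left out 0 to 2, the 2 without mfn2-/- replicate 4. Over all genes 1639 fell and 1398 rose with library weights, 346 and 152 at an adjusted p under 0.01, 845 rose after upper-quartile scaling and 113 without the trend. With 1 library left out 435 to 837 fell and 235 to 470 rose; both lows were without wild-type replicate 3, and without wild-type replicate 4 there were 486 and 263. Without mfn2-/- replicate 1, 2 or 3, 273, 260 and 312 rose. The interaction with Y-linked reads passed for 0 members without the trend. With a pseudocount of 10 the log2 ratio changes of Mfap5 to Mfap2 and of Fbln5 to Eln turned from 0.56 and -0.02 to -0.29 and 0.11, the first resting on 2 mfn2-/- libraries with 0 reads of both genes. With 1 library left out these changes ran from -0.25 to 1.01 and from -0.38 to 0.34, so their sign also depended on single libraries. The cause was not tested.

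Same-numbered libraries correlated at -0.035, -0.053, 0.038 and -0.11, so the numbers were not taken as a pairing. With a replicate block 10 members and 15 pathway genes fell, and 609 genes fell and 434 rose. Depth limits Fbn2, Mfap2 and Mfap4, with at most 2 reads in the mfn2-/- group.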
